A study of Drosophila melanogaster with 15 samples.

Results

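The genes described here are the 7 genes of serotonin signalling named in the annotation as serotonin receptors or as genes of the serotonin neuron, out of 17453 gene identifiers counted in heads of Drosophila melanogaster. They are the receptors 5-HT1A, 5-HT1B, 5-HT2A, 5-HT2B and 5-HT7, the transporter SerT and the tryptophan hydroxylase Trhn. They were chosen by name, with earlier results of these data known, and all 7 were matched to an identifier. The libraries came from naive 5-day-old males of 6 strains and were made from polyadenylated RNA of pooled heads, so each library is a pool of many animals. The control strain WT is a Bloomington stock with a Cas9 transgene under the Act5C promoter, inserted at ZH-2A, and the mutations y1 in yellow, w1118 in white and DNAlig4169 in DNA ligase 4. The gene for cystathionine β-synthase was deleted by CRISPR in strains CBS-/-(5) and CBS-/-(8), the gene for cystathionine γ-lyase in CSE-/-, and both genes in CBS-/-CSE-/-(1) and CBS-/-CSE-/-(2), called double deletion strains below. The deletion strains also carry mutations in yellow and white, and whether they carry the Cas9 transgene or DNAlig4169 is not given in the sources used here. Each deletion strain is a single line, with strain numbers in parentheses where a genotype has 2 lines, and CSE-/- has no second line. WT, CBS-/-(5) and CBS-/-CSE-/-(2) had 2 libraries each, and CBS-/-(8), CBS-/-CSE-/-(1) and CSE-/- had 3 each, 15 in all, although the labels speak of 3 biological replicates for each. No treatment was given.

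Serotonin is made from tryptophan by a hydroxylase and a decarboxylase, loaded into vesicles, released, and taken back into the neuron by its transporter. The receptors are G protein-coupled receptors that differ in the signal they raise. The 5-HT1 type lowers cyclic AMP through an inhibitory G protein, the 5-HT2 type raises intracellular calcium, and 5-HT7 raises cyclic AMP. In flies serotonin is known for its part in sleep, feeding, aggression and memory, the last being the subject of the study.

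The genes lie on 3 chromosome arms (coordinates of BDGP6, release dm6). Trhn (FBgn0035187), the neuronal hydroxylase and rate-limiting enzyme of synthesis, lies at chr3L:1190384-1193173 on the minus strand with 2183 bases of exon and 1 annotated transcript. Its exons share 89 bases with CG13912 on the opposite strand, a gene with 67 to 262 reads per library, and the strand setting of the counting is not given in the sources used here, so these reads cannot be told apart with certainty. SerT (FBgn0010414), the plasma membrane transporter, lies at chr2R:24404595-24411074 on the minus strand with 3725 bases of exon. 5-HT1A (FBgn0004168, chr2R:19067155-19121958, plus strand, 5019 bases of exon) and 5-HT1B (FBgn0263116, chr2R:19022325-19032642, minus strand, 4026 bases of exon) are neighbours with 34512 bases between them. 5-HT2A (FBgn0087012) lies at chr3R:4612870-4633304 on the plus strand with 5410 bases of exon, and 5-HT2B (FBgn0261929) at chr3R:8578205-8629996 on the plus strand with 6333. 5-HT7 (FBgn0004573) lies at chr3R:30968236-31016875 on the minus strand with 4486 bases of exon. No exon of these genes other than that of Trhn overlapped an exon of another gene.

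The libraries held 6850445 to 21144213 reads assigned to genes (median 10285508). Levels are given as CPM, the reads of a gene over the library total scaled by TMM. The floor of a library was taken as 3 reads, which stood for 0.142 to 0.438 CPM on plain totals, without TMM. The targeted genes followed the labels. Cbs had 3 to 55 reads where it was deleted and 867 to 1649 elsewhere, the 55 reads being those of CBS-/-CSE-/-(1) replicate 2, the next highest being 17. Cth, the gene for cystathionine γ-lyase, had 10 to 25 reads where it was deleted and 233 to 489 elsewhere. Head tissue was marked by photoreceptor genes with a summed level of 29541 to 50829 CPM, neuron markers were present in every library at a sum of 144 to 343 CPM, and all 3 markers of the male accessory gland stayed at or under the floor. The 11 midgut markers summed to 191 and 532 CPM in CBS-/-(5) and to 1960 to 34550 CPM in the other strains. In WT replicate 3, 8.27% of reads were ambiguous between genes, the highest share of the range from 5.12%.

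Trhn, SerT and 5-HT2A were the abundant genes of the group, and the other receptors were scarce. Per kilobase of exon and over the 15 libraries, the mean level was 14.2 CPM for Trhn, 7.46 for SerT and 5.60 for 5-HT2A. The levels per kilobase of the remaining receptors were 1.03 CPM for 5-HT1B, 0.908 for 5-HT1A, 0.416 for 5-HT2B and 0.271 for 5-HT7. Among neighbours in this order, the ranges of single libraries stood apart for Trhn over SerT and for 5-HT2A over 5-HT1B, and overlapped for the other pairs. SerT was above 5-HT2A in 13 of 15 libraries, 5-HT1B above 5-HT1A in 10, 5-HT1A above 5-HT2B in 15 and 5-HT2B above 5-HT7 in 12. With the length of the longest transcript in place of all exons the order over the 15 libraries was the same. In reads, Trhn had 147 to 784 per library, SerT 125 to 586 and 5-HT2A 111 to 599, whereas 5-HT1A had 22 to 90, 5-HT1B 13 to 85, 5-HT2B 8 to 53 and 5-HT7 6 to 26. The levels of the scarce receptors thus rest on few reads, and the share of counting in their spread was not computed.

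**Figure D1:**
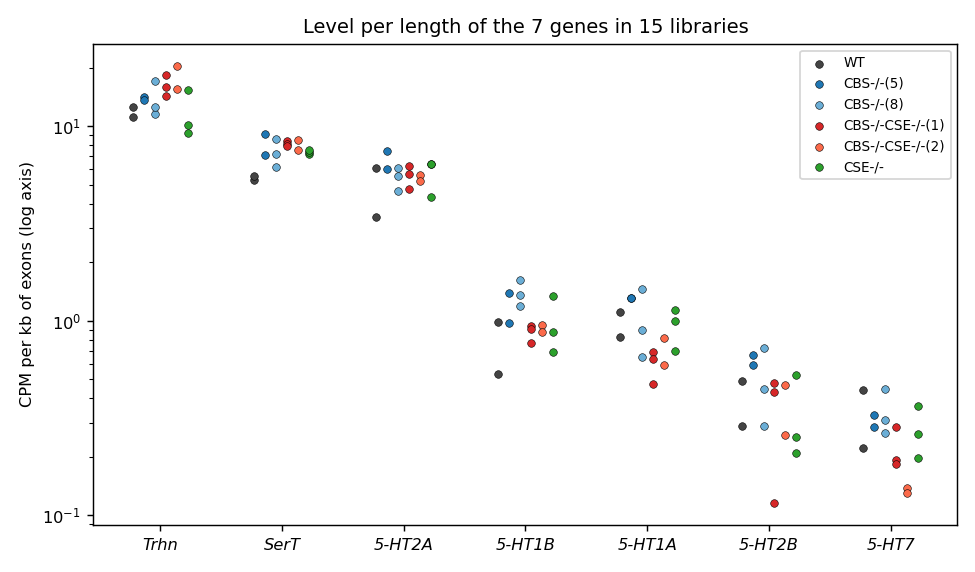
Level of each gene in CPM per kilobase of exon (vertical log axis) in the 15 libraries, with points coloured by strain and genes in descending order of the mean. Trhn, SerT and 5-HT2A lie above the 4 other receptors in every library, and the lowest mean is that of 5-HT7 at 0.271.

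Trhn passed the test in no strain, and which strain was highest depended on the scaling. Its mean was highest in CBS-/-CSE-/-(2) on TMM-scaled totals (39.3 ± 7.57 CPM, SD, n = 2) and in CBS-/-(5) on plain totals (36.2 ± 0.779 CPM, SD, n = 2). In WT its level was 27.6 and 24.4 CPM. In the CBS-/- strains Trhn was at 30.9 and 29.9 CPM in CBS-/-(5) and at 37.3, 25.3 and 27.5 CPM in CBS-/-(8). The double deletion libraries had 31.3, 40.2 and 34.9 CPM of Trhn in CBS-/-CSE-/-(1) and 34.0 and 44.7 CPM in CBS-/-CSE-/-(2), and thus all 5 lay above both WT libraries, as did CBS-/-(5). On plain totals this did not hold for Trhn, since CBS-/-CSE-/-(1) replicate 3 lay below WT replicate 1. Of all genes tested, 18.2% had every CBS-/-CSE-/-(1) library above both WT libraries, 29.2% every CBS-/-CSE-/-(2) library and 31.7% every CBS-/-(5) library. Trhn was at 33.6, 22.2 and 20.1 CPM in CSE-/-, a range that includes the control. The log2 difference of Trhn from WT was 0.24 (SE 0.17, adjusted p = 0.377) in CBS-/-(5) and 0.18 (SE 0.27, adjusted p = 0.727) in CBS-/-(8) by edgeR's quasi-likelihood test. It was 0.45 (SE 0.21, adjusted p = 0.307) in CBS-/-CSE-/-(1) and 0.58 (SE 0.21, adjusted p = 0.190) in CBS-/-CSE-/-(2). None of these passed the threshold of 0.05.

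SerT, which ends the signal by taking serotonin back up, was higher in each of the 13 deletion libraries than in both WT libraries, yet passed the test in no strain. In WT it stood at 19.6 and 20.8 CPM (mean 20.2 ± 0.783, SD, n = 2). SerT was at 34.0 and 26.6 CPM in CBS-/-(5) and at 32.2, 26.9 and 23.0 CPM in CBS-/-(8). The double deletion strains had 31.5, 30.1 and 29.7 CPM of SerT in CBS-/-CSE-/-(1) and 28.3 and 31.6 CPM in CBS-/-CSE-/-(2), and the values of CSE-/- were 27.0, 27.5 and 28.0 CPM. The replicates of CBS-/-CSE-/-(1) and of CSE-/- lay close together, and those of the CBS-/- strains spread more widely. Of 9022 genes, 3.37% were likewise higher in all 13 deletion libraries than in both WT libraries and 5.95% were lower in all 13. All these comparisons share the same pair of WT libraries. The log2 difference of SerT from WT was 0.61 (SE 0.20, adjusted p = 0.109) in CBS-/-(5), 0.42 (SE 0.27, adjusted p = 0.401) in CBS-/-(8), 0.59 (SE 0.19, adjusted p = 0.153) in CBS-/-CSE-/-(1), 0.55 (SE 0.18, adjusted p = 0.157) in CBS-/-CSE-/-(2) and 0.44 (SE 0.24, adjusted p = 0.850) in CSE-/-. With an offset for exon length per library the SerT difference was smaller in CBS-/-(5), at 0.33, and in CBS-/-(8), at 0.20. With the replicate numbers of CBS-/-(5) and WT crossed in a block, an alternative chosen after the data were seen, SerT passed with an adjusted p of 0.0441, and under the other alternatives its adjusted p in CBS-/-(5) ran from 0.0994 to 0.607.

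**Figure D2:**
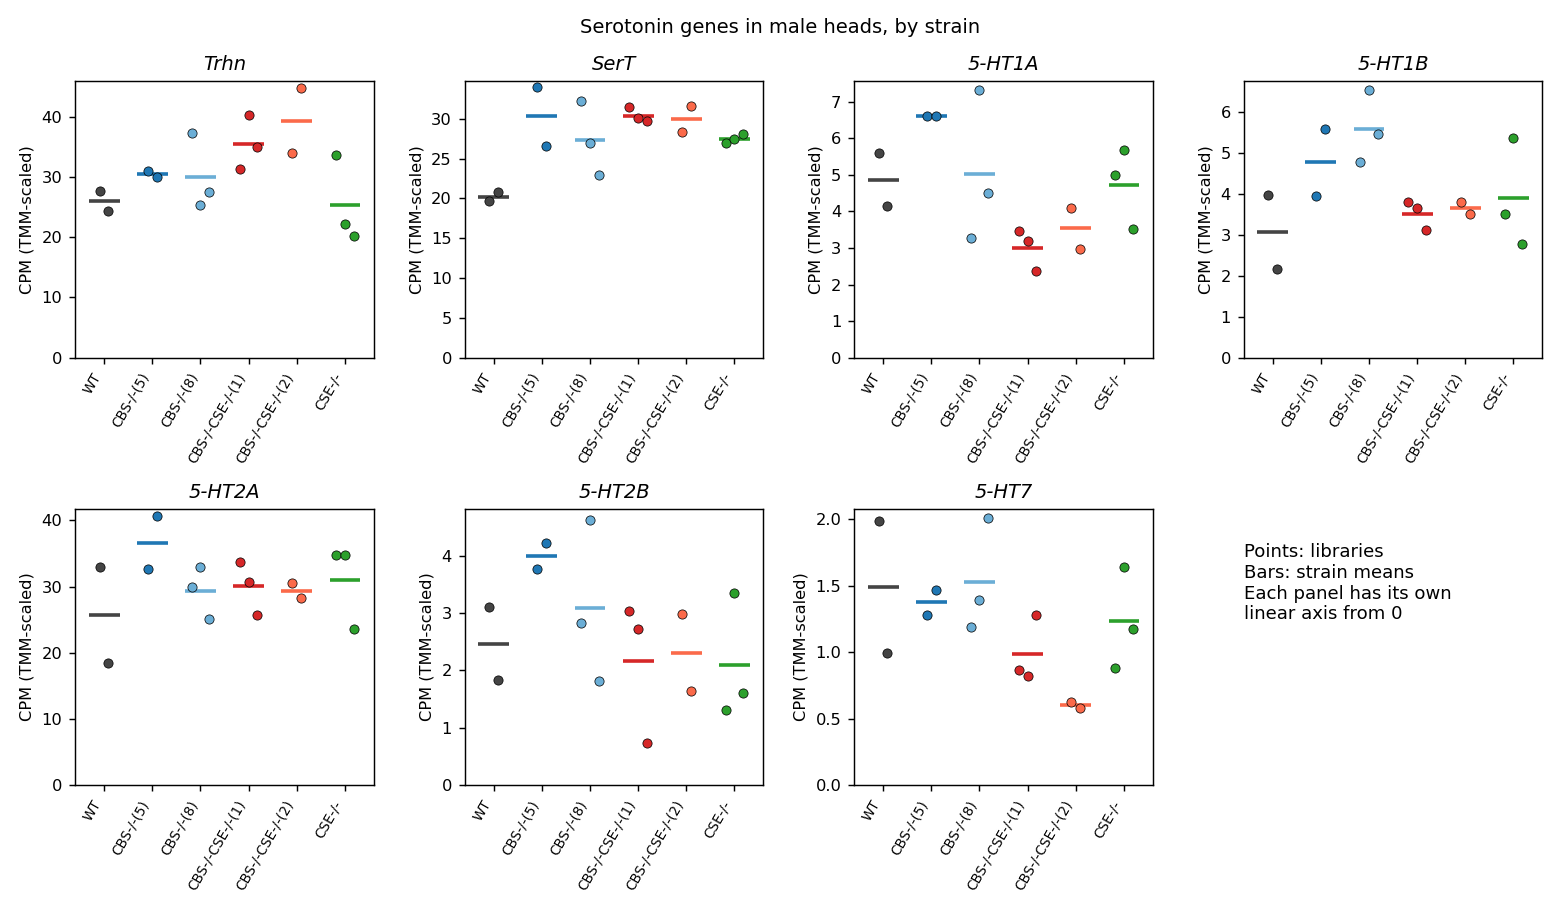
Level of each of the 7 genes in CPM on TMM-scaled totals (vertical axes from 0, each panel with its own scale) by strain, with points for libraries and bars for strain means. The 13 deletion libraries lie above both WT libraries for SerT, and the double deletion libraries lie below the CBS-/- libraries for 5-HT1B, at 3.81 CPM or less against 3.94 or more.

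Of the receptors that act through an inhibitory G protein, 5-HT1A had its lowest mean levels in the double deletion strains and 5-HT1B in WT. 5-HT1A, known in flies from neurons of the mushroom body, was at 5.60 and 4.15 CPM in WT and at 4.99, 5.69 and 3.53 CPM in CSE-/-. In CBS-/-(5) both libraries were at 6.60 CPM of 5-HT1A, and in CBS-/-(8) the values were 3.28, 7.32 and 4.50 CPM, a wide spread. The double deletion strains had 3.46, 3.18 and 2.38 CPM of 5-HT1A in CBS-/-CSE-/-(1) and 4.09 and 2.98 CPM in CBS-/-CSE-/-(2). All 5 of these lay below both WT libraries, the nearest pair being 4.09 and 4.15 CPM, and 19.5% of all genes tested lay below WT in this way in CBS-/-CSE-/-(1) and 25.6% in CBS-/-CSE-/-(2). On plain totals WT replicate 3, at 3.42 CPM of 5-HT1A, lay within the double deletion range. The log2 difference of 5-HT1A from WT was -0.70 (SE 0.33, adjusted p = 0.307) in CBS-/-CSE-/-(1) and -0.49 (SE 0.36, adjusted p = 0.481) in CBS-/-CSE-/-(2) by edgeR, and neither passed the test. Without WT replicate 1 these differences of 5-HT1A were -0.46 and -0.24, and without CBS-/-CSE-/-(2) replicates 2 and 4 in turn the latter was -0.74 and -0.26.

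5-HT1B, the second receptor of this type, was at 3.98 and 2.16 CPM in WT, so the control replicates differed widely. It was at 3.94 and 5.60 CPM in CBS-/-(5), and at 4.77, 6.54 and 5.45 CPM in CBS-/-(8). The values of 5-HT1B in the double deletion strains were 3.80, 3.64 and 3.12 CPM in CBS-/-CSE-/-(1) and 3.81 and 3.51 CPM in CBS-/-CSE-/-(2), and lay close together. In CSE-/- they were 3.52, 5.37 and 2.78 CPM. Only CBS-/-(8) had all of its libraries above both of WT, as was so for 18.8% of all genes tested, with a log2 difference of 0.83 (SE 0.39, adjusted p = 0.264 by edgeR), which did not pass the test. The 5-HT1B difference was 0.51 without WT replicate 3 and 1.35 without WT replicate 1.

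5-HT2A carried most of the receptor reads, and no strain stood apart in its level. In WT, 5-HT2A, a calcium-mobilising receptor, stood at 33.0 and 18.4 CPM, so the control replicates were further apart than those of any deletion strain. The level of 5-HT2A was 32.7 and 40.6 CPM in CBS-/-(5) and 30.0, 33.0 and 25.1 CPM in CBS-/-(8). It was 33.7, 30.7 and 25.7 CPM in CBS-/-CSE-/-(1), 30.5 and 28.3 CPM in CBS-/-CSE-/-(2), and 34.7, 34.7 and 23.5 CPM in CSE-/-. The range of every strain overlapped that of WT, and CBS-/-(5) replicate 3 was the highest of the 15 libraries.

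5-HT2B, the other receptor of this type, was at 3.11 and 1.83 CPM in WT. It was at 3.76 and 4.22 CPM in CBS-/-(5), above both, and at 2.83, 4.62 and 1.82 CPM in CBS-/-(8). The double deletion strains had 3.03, 2.72 and 0.733 CPM of 5-HT2B in CBS-/-CSE-/-(1) and 2.98 and 1.64 CPM in CBS-/-CSE-/-(2), and CSE-/- had 1.32, 3.35 and 1.61 CPM. The lowest of these, 0.733 CPM, rested on 8 reads, and the replicates of CBS-/-CSE-/-(1) and of CBS-/-(8) differed by more CPM than the strain means did.

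5-HT7, the receptor that raises cyclic AMP, was the scarcest of the 7. It stood at 1.99 and 0.996 CPM in WT, the latter from 6 reads. The level of 5-HT7 was 1.28 and 1.47 CPM in CBS-/-(5), 1.19, 1.39 and 2.01 CPM in CBS-/-(8), and 0.880, 1.64 and 1.18 CPM in CSE-/-. In the double deletion strains it was 0.865, 0.821 and 1.28 CPM in CBS-/-CSE-/-(1) and 0.624 and 0.585 CPM in CBS-/-CSE-/-(2). Both libraries of CBS-/-CSE-/-(2) lay below every other library, on 9 and 10 reads, and the filter on low counts left 5-HT7 out of the comparison of this strain with WT.

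Against WT, no member of the group was called in any strain by edgeR at an adjusted p under 0.05. In CBS-/-(5) 0 of 7 were called beside 9.34% of all genes tested, with 1 at an unadjusted p under 0.05, and in CBS-/-(8) 0 of 7 beside 6.44%, with 0 at the unadjusted level. In CBS-/-CSE-/-(1) 0 of 7 were called beside 4.18%, with 1 at the unadjusted level, in CBS-/-CSE-/-(2) 0 of 6 beside 3.45%, with 2, and in CSE-/- 0 of 7 beside 0.778%, with 0. DESeq2 called 0 members in each of the 5 strains, with 1, 0, 1, 0 and 0 at the unadjusted level in the same order. The members' median log2 difference from WT was 0.52 in CBS-/-(5), where that of all genes was 0.03, and lay between -0.04 and 0.19 in the other strains, where that of all genes was at most 0.04.

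Between the double deletion and the CBS-/- strains, 3 of the 5 receptors were called lower by edgeR, and 5-HT2A, 5-HT2B, Trhn and SerT were not called. This comparison of 5 libraries with 5 asks what the additional loss of CSE goes with, and does not use the control. Each side pools the lines of its genotype, so its n and SD count libraries and not independent lines. The part of other differences between the lines in these results was not tested. On the log2 scale 5-HT1A fell by 0.83, 5-HT1B fell by 0.56 and 5-HT7 fell by 0.84. The 3 called genes were 3 of 7 members, beside 27.6% of 9230 genes called in this comparison, 14.4% lower and 13.3% higher.

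For 5-HT1A the mean was 3.22 ± 0.627 CPM (SD, n = 5) in the double deletion strains and 5.66 ± 1.70 (SD, n = 5) in the CBS-/- strains, with a log2 difference of -0.83 (SE 0.24, adjusted p = 0.0335 by edgeR). The ranges overlapped, since CBS-/-(8) replicate 1 had 3.28 CPM. For 5-HT1B the means were 3.58 ± 0.287 and 5.26 ± 0.968 CPM (SD, n = 5 each), with a log2 difference of -0.56 (SE 0.17, adjusted p = 0.0361 by edgeR). All 5 double deletion libraries lay below all 5 CBS-/- libraries, 3.81 CPM being the highest of the former and 3.94 the lowest of the latter, as was so for 6.12% of all genes. For 5-HT7 the means were 0.835 ± 0.278 and 1.47 ± 0.319 CPM (SD, n = 5 each), with a log2 difference of -0.84 (SE 0.27, adjusted p = 0.0420 by edgeR) and overlapping ranges.

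The other 4 genes were not called. The log2 difference was -0.64 (SE 0.37, adjusted p = 0.189 by edgeR) for 5-HT2B and -0.12 (SE 0.14, adjusted p = 0.498) for 5-HT2A. It was 0.29 (SE 0.14, adjusted p = 0.112) for Trhn, whose means on plain totals had the opposite order (32.9 ± 4.85 and 34.7 ± 2.34 CPM, SD, n = 5 each), and 0.08 (SE 0.12, adjusted p = 0.619) for SerT. The SerT estimate is the tightest of the 7, with means of 30.2 ± 1.38 and 28.6 ± 4.50 CPM (SD, n = 5 each).

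These 3 calls stood close to the threshold. With DESeq2, 5-HT7 was no longer called (adjusted p = 0.0761, in a range over alternatives from 0.0314 to 0.263). Leaving out one library left 0 to 4 members called. Without CBS-/-CSE-/-(1) replicate 2, the library with 55 reads of Cbs, none was called. The same was so without any one of several other libraries of both genotypes, named in the last section. Over all genes tested, lower calls were more frequent in genes of the receptors' exon length or longer than in shorter genes. The 5 receptors have 4026 to 6333 bases of exon, and of 1156 tested genes within this range 31.0% were called lower and 1.64% higher, with a median log2 difference of -0.45, while that of all genes was -0.06. Of the 7116 shorter genes 10.2% were called lower and 16.6% higher. With an offset for exon length per library the difference was -0.43 for 5-HT1A, -0.24 for 5-HT1B and -0.47 for 5-HT7, none of them called, and that of 5-HT2A was 0.29. Among the 5 receptors the order of the differences without the offset was not that of exon length. With SE from 0.14 to 0.37 that order is uncertain, and nothing is drawn from it. The part of length in the 3 calls was not tested beyond this offset.

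**Figure D3:**
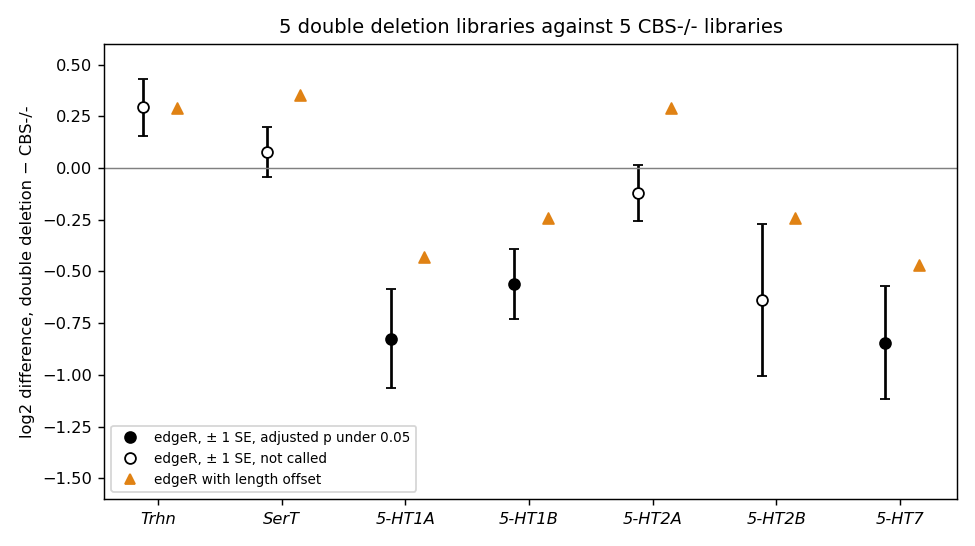
Log2 difference between the double deletion strains (5 libraries) and the CBS-/- strains (5 libraries) for each gene, with circles for edgeR's estimate ± 1 SE, filled where the adjusted p was under 0.05, and triangles for the estimate with an offset for exon length. 5-HT1A, 5-HT1B and 5-HT7 are filled at -0.83, -0.56 and -0.84, and their triangles lie nearer to 0.

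Markers of neurons moved in the same direction. The 7 neuron markers summed to 144 to 199 CPM in the double deletion libraries and to 237 to 341 CPM in the CBS-/- libraries, with no overlap. Of these markers, 4 were called lower by edgeR and none higher. They were nSyb (log2 difference -0.91, SE 0.15) and Snap25 (-0.74, SE 0.25), both of the vesicle fusion machinery, brp of the active zone (a mean of 12.7 CPM against 25.2), and the synaptic vesicle chaperone Csp (-0.75, SE 0.17). None of the 7 neuron markers was at or under the floor in all libraries. Glia markers overlapped, with sums of 403 to 580.5 CPM in the double deletion libraries and 385 to 566 CPM in the CBS-/- libraries. In whole heads, fewer cells of a type and less RNA per cell cannot be told apart, and the part of the neuron markers in the receptor levels was not tested.

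The receptors of other monoamines were described for comparison. All 12 of 12 listed receptors of dopamine, octopamine and tyramine had a negative log2 difference between the double deletion and CBS-/- strains, with a median of -0.58, and 2 of 12 were called lower by edgeR, beside 14.4% of all genes called lower, so that this count was near the background. They were the dopamine receptors Dop1R2 (-0.99, SE 0.24, adjusted p = 0.0244) and DopEcR (-0.81, SE 0.28, adjusted p = 0.0483), the latter also responding to ecdysone. DESeq2 called both lower and also Dop2R and Oamb, and its share over all genes is not given here. The median over the 7 serotonin genes was -0.56 and that over all genes -0.06. Over genes within the exon length range of the serotonin receptors it was -0.45, and over longer genes -0.47. The part of exon length in the medians of these receptors was not tested. Against WT none of the 12 was called by edgeR in any strain, with 1 to 3 at an unadjusted p under 0.05 and at most 1 called by DESeq2.

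The make-up of the receptor reads within a library does not depend on library scaling and was examined after the levels were seen, with no test. Reads of 5-HT2A made up 62.4 to 71.3% of the reads on the 5 receptors in the CBS-/- strains (mean 67.1 ± 3.61%, SD, n = 5) and 72.6 to 77.4% in the double deletion strains (75.3 ± 1.83%, SD, n = 5). These ranges did not overlap. The share of 5-HT2A comes from the same reads as the lower calls of the scarce receptors, so it restates them and adds no support. The share of 5-HT2A was 69.2 and 66.9% in WT and 68.4 to 76.4% in CSE-/-, overlapping the lower range in WT and both ranges in CSE-/-. The ratio of the reads on the 5 receptors to those on Trhn and SerT was 0.605 to 1.04 in the CBS-/- strains and 0.485 to 0.715 in the double deletion strains, with overlap. In WT this ratio was 1.01 in replicate 1 and 0.610 in replicate 3, so the control alone spanned most of the range.

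**Figure D4:**
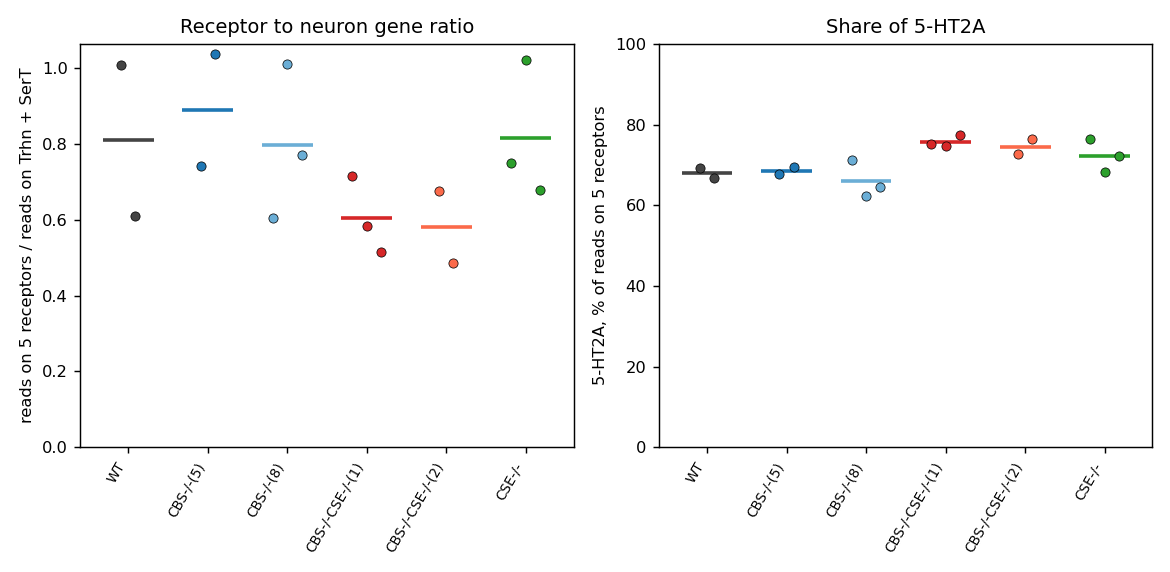
Ratio of reads on the 5 receptors to reads on Trhn and SerT (left) and share of 5-HT2A in the reads on the 5 receptors in percent (right) by strain, with points for libraries and bars for strain means, both axes from 0. The share of 5-HT2A is 72.6 to 77.4% in the double deletion libraries and 62.4 to 71.3% in the CBS-/- libraries.

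The remaining comparisons between deletion strains gave no call among the members. In the CBS-/- strains against CSE-/- 0 of 7 were called by edgeR beside 1.52% of all genes, with 0 at an unadjusted p under 0.05 and 0 called by DESeq2. In the double deletion strains against CSE-/- 0 of 7 were called beside 1.73%, with 2 at the unadjusted level and 0 called by DESeq2. These 2 were 5-HT1A, with a log2 difference of -0.56 (SE 0.25, adjusted p = 0.258), and Trhn, with 0.55 (SE 0.21, adjusted p = 0.200). Between the strains of one genotype, 0 of 7 were called for CBS-/-(8) against CBS-/-(5), beside 3.86% of all genes, and 0 of 7 for CBS-/-CSE-/-(2) against CBS-/-CSE-/-(1), beside 0.353%. In both, 0 were at the unadjusted level by edgeR and 0 were called by DESeq2. The uncalled log2 difference of 5-HT7 for CBS-/-CSE-/-(2) against CBS-/-CSE-/-(1) was -0.69 (SE 0.51), so the absence of a call does not show equal levels.

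Synthesis and storage of serotonin were followed through 9 of 10 listed genes that were matched. Those called by edgeR in the comparisons given here were Dhpr, Hn, Pu and pr. Dhpr, the dihydropteridine reductase that recycles tetrahydrobiopterin, the cofactor of the hydroxylases, was at 359 and 454 CPM in WT and was lower in CBS-/-(5) (184 to 192 CPM, log2 difference -1.09, adjusted p = 0.0200 by edgeR) and in CBS-/-(8) (110 to 186 CPM, -1.49, adjusted p = 0.0170). In CSE-/- it was at 88.9 to 165 CPM and was called lower by DESeq2 but not by edgeR. Between the double deletion and CBS-/- strains it was higher by 0.88 (SE 0.20, adjusted p = 0.0221), with 225 to 398 CPM against 110 to 192 CPM and no overlap. Hn, the phenylalanine hydroxylase that can also act on tryptophan, was called lower by edgeR in CBS-/-(5) alone, with 483 and 491 CPM beside 806 and 1017 CPM in WT (log2 difference -0.89, SE 0.18, adjusted p = 0.0354). DESeq2 called Hn lower in all 4 strains without CBS. Values of Hn were 418 to 496 CPM in CBS-/-(8) and 354 to 618 CPM in the double deletion strains, and the gene was not called between the double deletion and CBS-/- strains by edgeR or DESeq2. The 3 fat body markers summed to 893 and 959 CPM in WT, 593 and 610 CPM in CBS-/-(5), 328 to 520 CPM in CBS-/-(8), 361 to 521 CPM in the double deletion strains and 531 to 684 CPM in CSE-/-, with WT above all others, and apolpp, the lipid carrier precursor, was the 1 of 3 called lower by edgeR in each of the 4 strains without CBS. The part of these markers in the levels of Dhpr, Hn and v was not tested.

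Pu, the GTP cyclohydrolase at the start of cofactor synthesis, and pr, the next enzyme, were lower in the double deletion than in the CBS-/- strains. Pu was at 103 to 121 CPM and 163 to 255 CPM, respectively (log2 difference -0.75, SE 0.15, adjusted p = 0.0134 by edgeR), and pr at 41.9 to 57.7 CPM and 56.7 to 98.0 CPM (-0.68, SE 0.18, adjusted p = 0.0292). In total 2 of 9 genes of the list were called lower in CBS-/-(5), 1 in CBS-/-(8) and 0 in CBS-/-CSE-/-(1), CBS-/-CSE-/-(2) and CSE-/- against WT by edgeR (2, 4 and 1 at an unadjusted p under 0.05), and DESeq2 called 2, 2, 2, 2 and 1 in these 5 strains, Pu among them in both double deletion strains. Ddc, the decarboxylase that makes serotonin and dopamine, was not called in any of these comparisons by either tool and spread from 60.4 to 148 CPM within WT. Vmat, the vesicular transporter, was at 71.8 to 102 CPM over the 15 libraries, and prt, a related vesicular transporter, at 24.1 to 49.2 CPM, and neither was called by edgeR or DESeq2. Between the double deletion and CBS-/- strains DESeq2 also called Pcd and Sptr, of the cofactor route, higher.

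**Figure D5:**
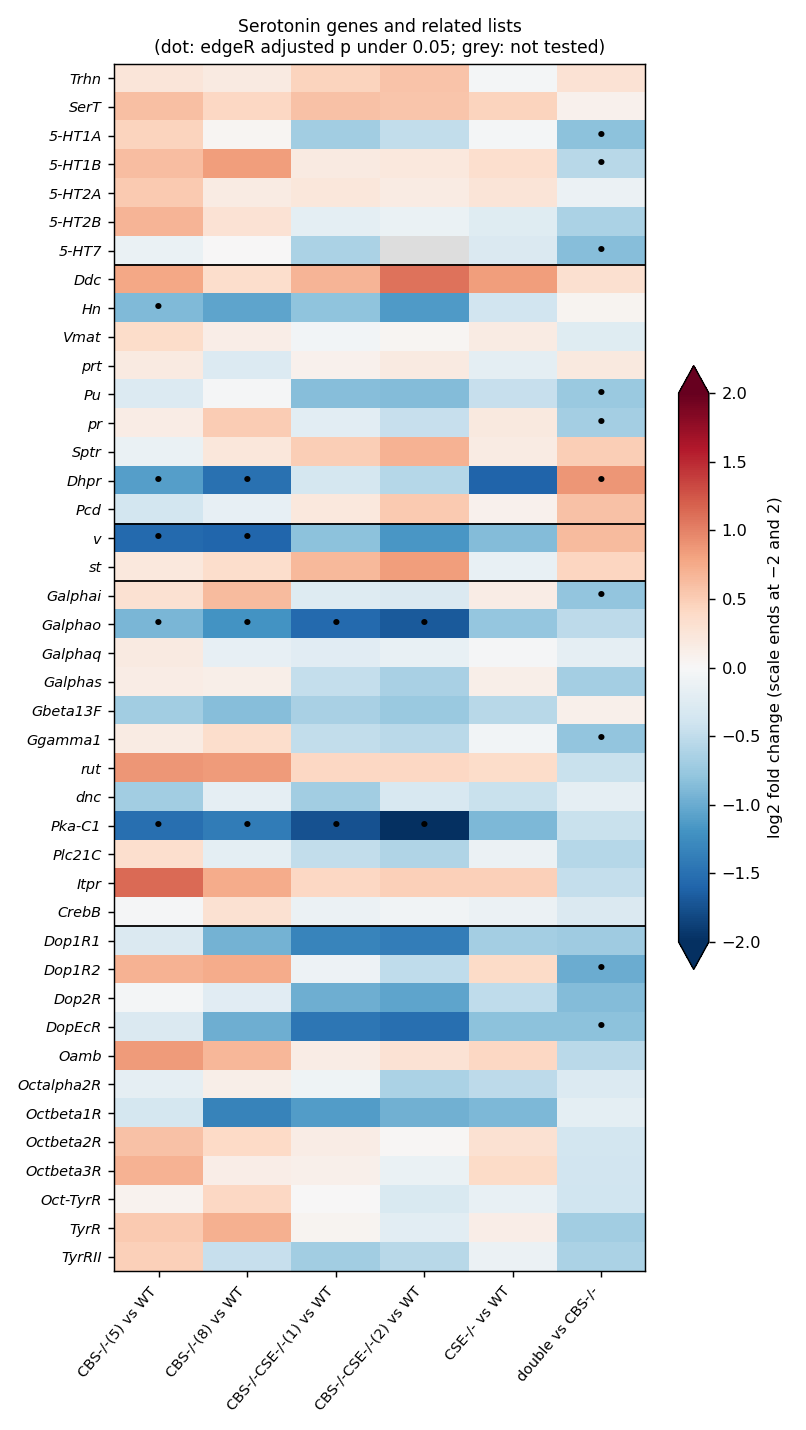
Log2 fold change (colour, scale ending at -2 and 2) of the 7 serotonin genes and of the tested genes of 4 related lists (rows, lists parted by lines) in the 5 deletion strains against WT and in the double deletion against the CBS-/- strains (columns), with a dot where edgeR's adjusted p was under 0.05 and grey where a gene was not tested. The serotonin genes carry dots in the last column alone.

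Tryptophan is also used up by the kynurenine route, of which 4 of 5 listed genes were matched and 2 tested. v, the tryptophan dioxygenase that opens the route, was lower in both CBS-/- strains, at 109 and 121 CPM in CBS-/-(5) (log2 difference -1.55, SE 0.23, adjusted p = 0.0148 by edgeR) and at 71.2 to 158 CPM in CBS-/-(8) (-1.59, SE 0.37, adjusted p = 0.0236), beside 274 and 408 CPM in WT. In the double deletion strains v was at 116 to 258 CPM and in CSE-/- at 80.2 to 264 CPM, below both WT libraries but not called by edgeR, while DESeq2 called it lower in CBS-/-CSE-/-(2). st, a subunit of the transporter of eye pigment precursors, was not called in any strain by edgeR, and was called higher by DESeq2 in CBS-/-CSE-/-(2). The reads of w, its partner, were at most 13 in a library, in strains that all carry a white mutation, and those of cn, the next hydroxylase of the route, at most 1, so neither was tested.

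Of the 3 listed regulators of serotonin neuron fate, tup, a LIM-homeodomain factor, was at 1.18 to 3.49 CPM over the 15 libraries and was not called in any strain by edgeR or DESeq2, while eg and hkb were too low to be tested. Downstream of the receptors, 12 signalling genes were listed and tested. Galphao, a G protein subunit abundant in neurons, and Pka-C1, the catalytic subunit of the cyclic AMP-dependent kinase, were lower than WT in all 4 strains without CBS, and edgeR called no other gene of this list in these 4 comparisons. DESeq2 called the same genes in all 4 strains and, in CBS-/-(5), also Itpr and rut higher and Gbeta13F lower, the last in CBS-/-(8) as well. Pka-C1 had a mean of 20.4 CPM in WT and of 7.02 (log2 difference -1.51, adjusted p = 0.0217 by edgeR), 7.76 (-1.39, 0.0314), 6.13 (-1.74, 0.0204) and 4.64 CPM (-2.15, 0.0225) in CBS-/-(5), CBS-/-(8), CBS-/-CSE-/-(1) and CBS-/-CSE-/-(2). Galphao had a mean of 18.9 CPM in WT and of 9.91, 8.29, 6.46 and 5.99 CPM in the same order, with adjusted p from 0.0192 to 0.0488. Of the 7 neuron markers, elav and Syt1 were called lower in the same 4 strains. The mean of elav was 10.4 CPM in WT and 1.60 to 3.35 CPM in these strains. Other markers went the other way, with 3 of 7 log2 differences positive in CBS-/-(5) and 2 of 7 in CBS-/-(8). The 7 markers summed to 264 and 343 CPM in WT, 301 and 321 CPM in CBS-/-(5) and 237 to 341 CPM in CBS-/-(8). Their sum was 144 to 199 CPM in the double deletion strains. The part of the neuron markers in the signalling genes was not tested. Between the double deletion and CBS-/- strains, Galphai (-0.79, SE 0.17, adjusted p = 0.0195), the inhibitory subunit, and Ggamma1 (-0.79, SE 0.19, adjusted p = 0.0256) were called lower, both singled out after their values were seen.

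Over the 15 libraries Pearson r of log2 of CPM plus 0.5 was 0.10 to 0.70 for pairs of receptors and -0.57 to 0.31 for a receptor with Trhn or SerT. The closest pair was 5-HT1A with 5-HT2B (r = 0.70), followed by 5-HT1B with 5-HT2A (r = 0.67). SerT and Trhn had r = 0.49, and the pair least alike was 5-HT7 with Trhn (r = -0.57). The points share library depth, scaling and strain, so these values are descriptions. Among all genes compared, the one most like 5-HT1A was kek2 (r = 0.95), that most like 5-HT1B was Su(var)3-3 (r = 0.96), and that most like 5-HT2A was asRNA:CR42254 (r = 0.91). The nearest were Efa6 for 5-HT2B (r = 0.92), Syn2 for 5-HT7 (r = 0.88), CG15824 for SerT (r = 0.87) and Acbp1 for Trhn (r = 0.94), all over 15 libraries.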

How the data were processed

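Polyadenylated RNA of male heads from 6 strains was sequenced as 15 directional libraries. In the PPLine pipeline the authors used Trimmomatic for trimming and STAR for alignment to dm6, and whole-number counts of reads per gene were deposited without normalization. The processing notes also name featureCounts and SAMtools. Of 17453 identifiers, 17179 had a symbol and an exon length in the Ensembl annotation of BDGP6. Groups are the strains given in the labels.

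Groups were compared in edgeR 4.0.16 (R 4.3.3) with TMM and the quasi-likelihood model, which the paper's methods name, and with filterByExpr and the legacy form of the F test, chosen here. Adjusted p are Benjamini-Hochberg values over every gene in the fit. Standard errors were taken as the size of the log2 difference over the root of F. Genes named are the 7 members, list genes that were called or that stand for a step, and the genes most alike by Pearson r. The members and lists were chosen with earlier results of these data known. Alternatives were RLE normalization, DESeq2 1.42.0, other filters on low counts, 1 fit of all libraries, strains as separate groups, a length offset, a replicate block and leaving out each library. Deviations of same-numbered libraries from their strain means correlated in all 3 pairs of the CBS-/- strains with CSE-/- (r = 0.22, 0.30 and 0.29). Both such pairs of CBS-/-CSE-/-(1) with WT correlated too (r = 0.25 and 0.36). Other pairs deviated in opposite directions, most strongly replicate 3 of CSE-/- and WT (r = -0.54). For replicate 3 of CBS-/-CSE-/-(1) and CSE-/- r was -0.50. The fits were tested on simulated data with 200 genes, all above a minimum of reads, changed by 2 on the log2 scale. Such changes are larger than those of the members, so the simulation does not show what the fits detect among them.

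Replicates correlated at r of 0.977 to 0.994. Taken over genes together, counts of replicates differed by 11.3 to 168 times the counting variance, so on this measure the spread between libraries exceeds counting error. It was not computed for single genes and does not describe the scarce receptors. The labels call the replicates biological. No sequencing batch is given. No sequences are shown.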

Additional observations from a re-analysis of the deposited data

Results flagged for a closer look

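A set of 3 differences between strains pooled by genotype is listed because the difference itself was tested and passed. The units of this test were libraries and not independent lines. Between the double deletion and the CBS-/- strains, 5-HT1A had a log2 difference of -0.83, 5-HT1B of -0.56 and 5-HT7 of -0.84 (adjusted p = 0.0335, 0.0361 and 0.0420 by edgeR, 5 libraries against 5). The alternatives kept the sign of each, with 5-HT1A called in 9 of 18, 5-HT1B in 6 of 18 and 5-HT7 in 3 of 17. In 14 checks of groups of 5 libraries, no library stood apart from the others in a member's level.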

How the results depend on the processing

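Against WT, the count of members called stayed at 0 under all alternatives but one, and became 1 (SerT in CBS-/-(5)) with crossed replicate numbers, tried because libraries of the same number deviated in opposite directions (r = -0.14). Between the double deletion and CBS-/- strains, 3 members were called in the main design, 1 without a filter on low counts, 1 in 1 fit of all 15 libraries, 0 with the length offset, 0 with the replicate block and 0 to 4 when a library was left out. Leaving out any of CBS-/-CSE-/-(1) replicates 2 and 3, CBS-/-CSE-/-(2) replicate 4, CBS-/-(5) replicate 3 and CBS-/-(8) replicates 2 and 5 gave 0, and CBS-/-CSE-/-(2) replicate 2 or CBS-/-(5) replicate 1 gave 1. The 5-HT2A difference turned to 0.29 with the length offset. Trhn was called without CBS-/-(8) replicate 1 (0.38, adjusted p = 0.0346, in a range over alternatives up to 0.421). The cause of these changes was not tested, beyond the smaller number of libraries where one was left out.

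Of 69 log2 differences of members over the 10 comparisons, 32 took the opposite sign under at least 1 alternative, none of them among the 3 called. Same-numbered libraries of the double deletion and CBS-/- strains did not deviate together (r = -0.28 to 0.06), so the block there joins libraries that share only a number. The block changed no call in the other comparisons. No paired analysis was possible for CBS-/-(8) and CBS-/-CSE-/-(2) against WT and within a genotype because fewer than 2 replicate numbers were shared. With 6 to 26 reads of 5-HT7 and 8 to 53 of 5-HT2B per library, and 2 control libraries, only large differences in these receptors could have been detected.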
